A study of Mus musculus with 5 samples.

Results

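Collagen genes were examined in mouse cells by class of the encoded chain. The genes were those with a non-control probe whose name in the array files was Col, a number, a, and a number. This gave 63 probes for 41 genes, of 21983 genes named on the array: 11 fibrillar, 6 basement membrane, 9 FACIT and 15 other collagens. RNA was hybridised to 5 single-colour arrays. Of these, 3 held chemically induced neural progenitor cells (ciNPC), with 2 arrays at passage 13 (p13) and 1 array at passage 5 (p5), 1 held brain-derived neural progenitor cells (NPC) and 1 held mouse embryonic fibroblasts (MEF), the cell type from which ciNPC are made. The labels used here give no strain, allele, drug or dose for any group, and leave unstated whether separate cultures gave the p13 arrays. The p-values below therefore reflect the spread among these arrays alone, and that spread may be technical. For ciNPC against MEF or NPC, the p5 and p13 arrays were pooled. The standard errors and SDs given there include any difference between the passages.

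Collagens are extracellular proteins of 3 chains wound into a helix, in which glycine recurs at a fixed step. Fibrillar collagens pack into the banded fibres that give connective tissue its tensile strength, and fibroblasts are their main producers. Type IV chains form the sheet-like network of basement membranes, including those around brain vessels and at the surface of the brain. FACIT collagens (fibril-associated collagens with interrupted triple helices) sit on the surface of fibrils, and the remaining chains include the beaded filament, anchoring fibril, hexagonal network, transmembrane and endostatin-releasing collagens.

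All 3 ciNPC arrays lay on slide 2, and the NPC and MEF arrays on slide 1. For ciNPC against either of them, slide and cell type cannot be told apart, whereas both passages shared slide 2, and NPC and MEF shared slide 1. The spike-in slope of ciNPC p13 replicate 2, 0.803, fell outside the range accepted by the software, and the other 4 arrays had slopes of 0.915 to 0.987. All 12 fibroblast markers (such as Thy1, Pdgfrb and Postn) were well above background on each ciNPC array and on MEF, against 7 on NPC, where Pdgfrb, Twist1, Twist2, Lum and Postn were not. Their summed signal, in units of the array's 75th percentile, was 182 to 243 on the ciNPC arrays, 76.5 on NPC and 1435 on MEF. The matrix gene Fbln2 held 89.3% of the NPC sum, and without it the sums were 124 to 168 in ciNPC, 8.14 on NPC and 1001 on MEF. The summed signal of 11 neural progenitor markers (such as Sox2, Olig2 and Fabp7) was 489 to 607 on the ciNPC arrays, 734 on NPC and 34.0 on MEF, and 10 of the 11 were higher in ciNPC than in MEF. In bulk RNA, fewer cells of a type and less RNA per cell cannot be told apart.

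Each level below is log2 of the processed signal minus log2 of the array's 75th percentile, and levels are compared between arrays for the same probe only. Of the 41 genes, 31, 33 and 29 were well above background on ciNPC p13 replicate 1, p13 replicate 2 and p5, 24 on NPC and 31 on MEF. The 35 genes (11 fibrillar, 5 basement membrane, 9 FACIT, 10 other) that exceeded background on all arrays of 1 or more of the 4 groups entered the tests. Of these, Col15a1 and Col24a1 passed that filter through MEF alone and Col19a1 through NPC alone. Col23a1 passed it through ciNPC alone, at both passages. Col4a3, Col28a1, Col6a4, Col6a6, Col13a1 and Col17a1 did not pass it.

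**Figure D1:**
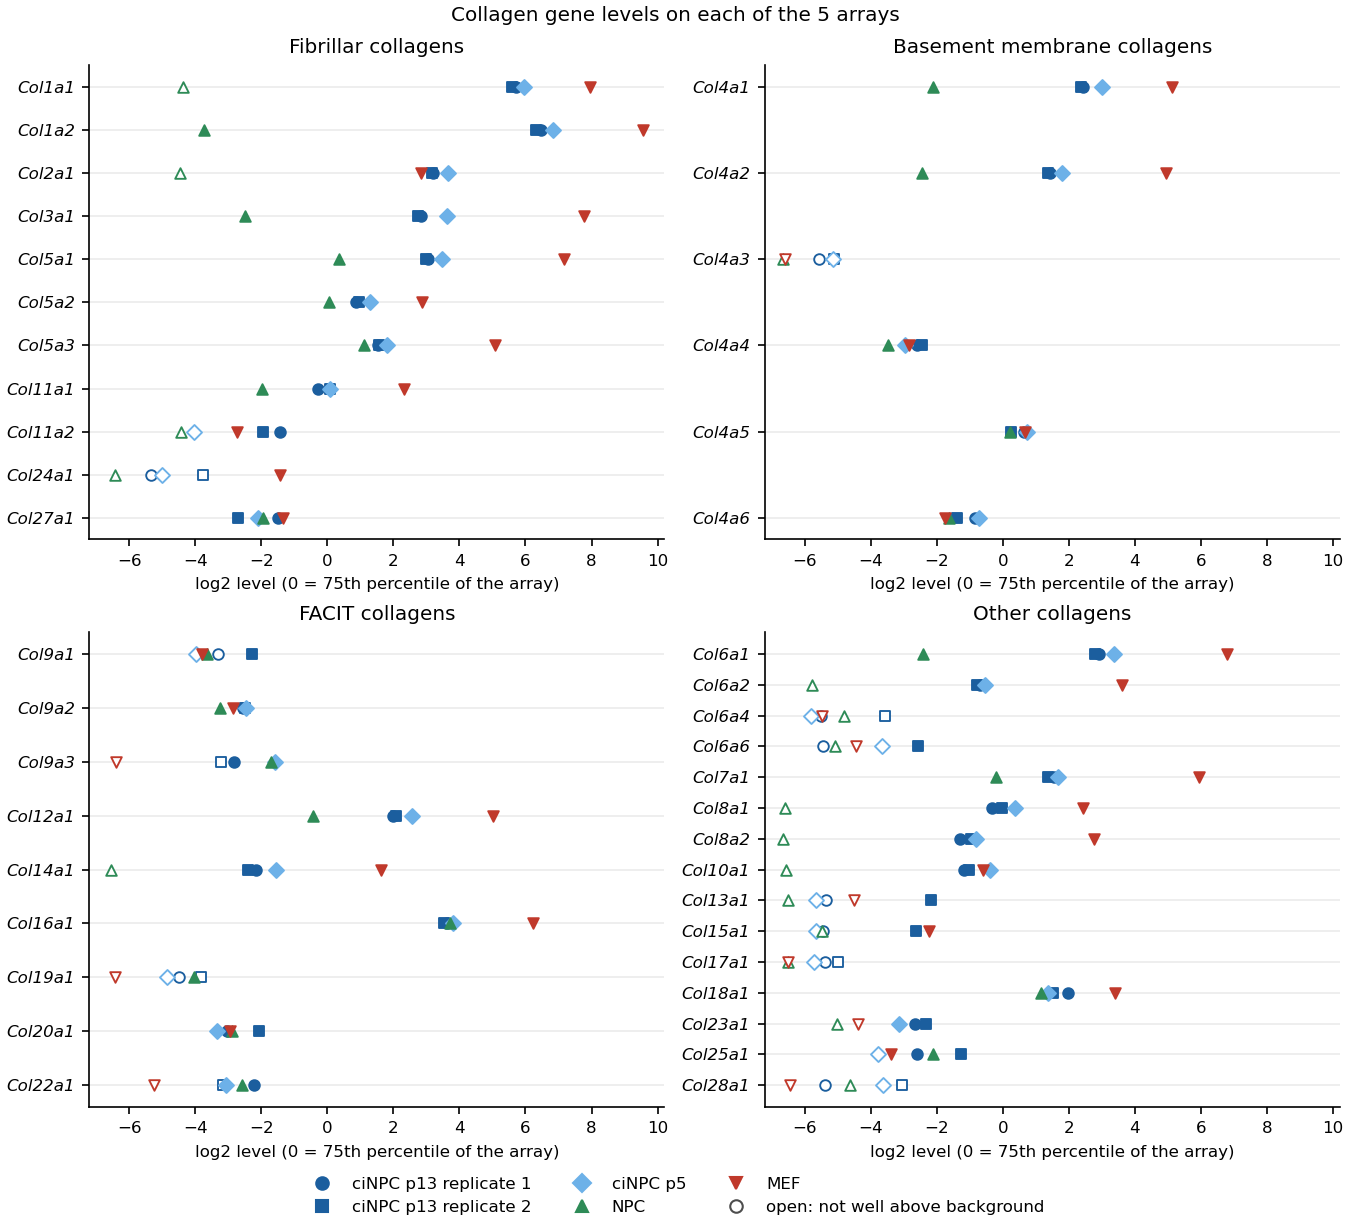
Level of each of the 41 collagen genes (rows, by class) on the 5 arrays, on the horizontal axis as log2 signal relative to the array's 75th percentile; filled symbols were well above background and open symbols were not. In the fibrillar panel the ciNPC symbols of Col1a1, Col1a2, Col3a1 and Col5a1 lie together between NPC on the left and MEF on the right, while those of Col2a1 lie to the right of MEF.

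In ciNPC, 19 collagen genes were lower than in MEF and 2 were higher, and 16 were higher than in NPC and 0 were lower (0 in limma also at an unadjusted p under 0.05, beside 8.84% of all genes). A gene was called at an adjusted p under 0.05 in limma and at least 2-fold. Over all 16229 genes tested, 15.3% were called higher and 15.3% lower against MEF, and 4.79% were called higher and 0.0863% lower against NPC. The genes lower than in MEF were 8 of 11 fibrillar, 2 of 5 basement membrane, 3 of 9 FACIT and 6 of 10 other genes tested. Without the 3 genes that passed the filter through 1 of the 4 groups alone, the counts were 18 lower than in MEF, with 7 of 10 fibrillar genes among them, and 16 higher than in NPC. Col23a1, which passed it through the ciNPC groups alone, was called in neither comparison. Those higher than in NPC were 6 fibrillar, 2 basement membrane, 2 FACIT and 6 other genes. Both comparisons used the same 3 ciNPC arrays.

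The median log2 difference of ciNPC from MEF was -2.34 for fibrillar, -0.13 for basement membrane, 0.36 for FACIT and -2.38 for other collagens, beside -0.09 for all genes tested. Against NPC the medians were 1.96, 0.81, 0.05 and 3.71 in the same order of classes, beside -0.14 for all genes. With dim values raised to a floor (the array's lowest signal marked as well above background), the medians against MEF became -2.19, -0.13, 0.36 and -2.09 (0.08 for all genes), and those against NPC 2.03, 0.81, 0.60 and 2.53 (-0.10 for all genes). Each of the 4 classes held genes on either side of 0 against MEF.

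**Figure D2:**
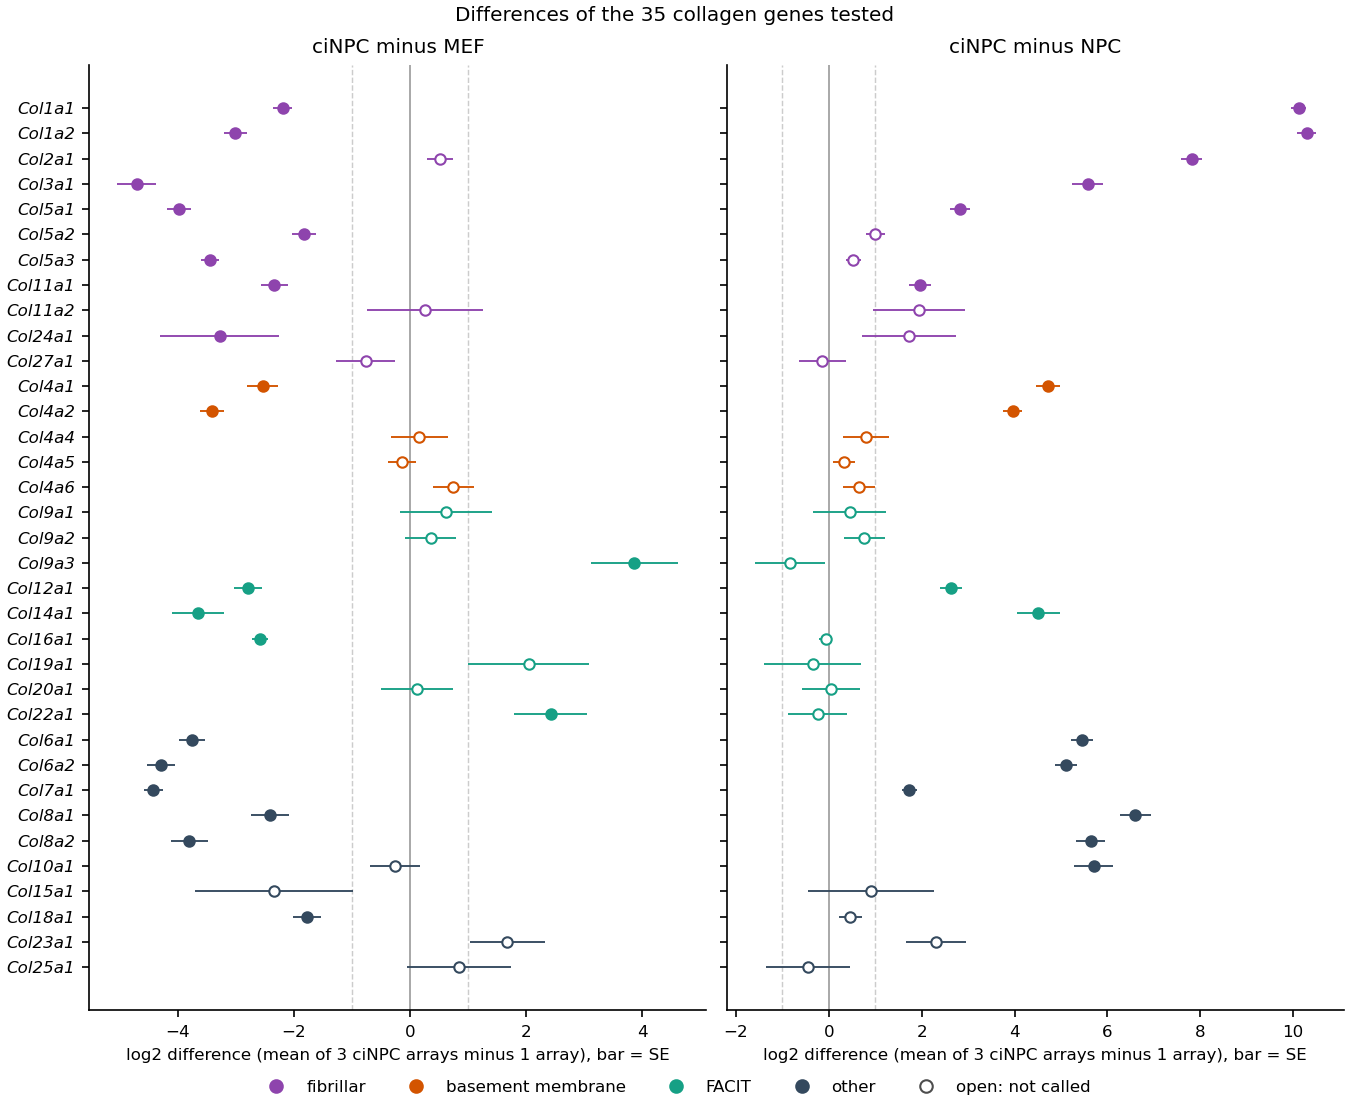
Log2 difference of the mean of the 3 ciNPC arrays from the MEF array (left) and from the NPC array (right) for the 35 collagen genes tested; bars are standard errors from limma, dashed lines mark 2-fold, and filled points were called. Most fibrillar and other collagens lie left of 0 against MEF and right of 0 against NPC, and Col9a3 and Col22a1 are the filled points right of 0 against MEF.

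Type I collagen, a heterotrimer of the Col1a1 and Col1a2 chains and the bulk of most connective tissue, was lower in ciNPC than in MEF but far above NPC. Col1a1 (probe on chromosome 11, 94813115 to 94813174, mm9) had log2 levels of 5.72, 5.60 and 5.95 on ciNPC p13 replicate 1, p13 replicate 2 and p5, against -4.36 (not well above background) on NPC and 7.95 on MEF. The 3 ciNPC values lay close together, below MEF and well clear of NPC. In ciNPC the signal was 22.0% ± 2.72 of that in MEF (SD, n = 3), a log2 difference of -2.19 (SE 0.16, limma adjusted p = 0.000104). Against NPC it was at least 1103-fold higher (limma adjusted p = 1.03e-06). Here and below, a p beside an "at least" fold tests the measured difference, with dim values not raised to the floor. It does not test the bound. Col1a2 (chromosome 6, 4490619 to 4490678) had levels of 6.48, 6.33 and 6.82 in ciNPC, -3.74 on NPC and 9.55 on MEF. That was 12.6% ± 2.26 of the MEF signal (SD, n = 3), and log2 differences of -3.01 (SE 0.20, limma adjusted p = 7.11e-05) from MEF and 10.29 (SE 0.20, limma adjusted p = 1.31e-06) from NPC. The same ordering held for both genes, with NPC lowest and MEF highest.

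Type III collagen, which forms fine fibres with type I in soft tissue, fell furthest among the fibrillar genes well above background in ciNPC. Col3a1 (chromosome 1, 45405589 to 45405648) had levels of 2.83, 2.76 and 3.63 in p13 replicate 1, p13 replicate 2 and p5, against -2.50 on NPC and 7.78 on MEF. The p5 array stood above both p13 arrays, and all 3 lay several log2 units from either comparison array. The difference was -4.71 (SE 0.33, limma adjusted p = 9.18e-05) from MEF, leaving 3.99% ± 1.43 of its signal (SD, n = 3), and 5.57 (SE 0.33, limma adjusted p = 0.000122) from NPC.

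Type V collagen controls the diameter of type I fibrils, and its 3 genes were all lower in ciNPC than in MEF but stood differently against NPC. Col5a1 had levels of 3.05, 2.99 and 3.48 in ciNPC, 0.35 on NPC and 7.15 on MEF. Its log2 difference was -3.98 (SE 0.21, limma adjusted p = 3.4e-05) from MEF and 2.82 (SE 0.21, limma adjusted p = 0.00036) from NPC. Col5a2 had 0.86, 0.97 and 1.28 in ciNPC, 0.04 on NPC and 2.86 on MEF. It differed by -1.82 (SE 0.20, limma adjusted p = 0.000568) from MEF, and by 1.00 (SE 0.20, limma adjusted p = 0.0428) from NPC, where its unrounded value fell just short of 2-fold and it was not called. It passed when either p13 array was left out (1.08 and 1.03) and with the percentile taken over detected probes (1.13). Col5a3 had 1.55, 1.57 and 1.81 in ciNPC, 1.12 on NPC and 5.08 on MEF, a difference of -3.44 (SE 0.16, limma adjusted p = 2.24e-05) from MEF and 0.52 (SE 0.16, limma adjusted p = 0.156) from NPC. The difference of ciNPC from NPC was thus called for Col5a1 and for neither Col5a2 nor Col5a3.

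Type II collagen is the main fibril of cartilage, and Col2a1 did not follow the other abundant fibrillar genes. Its levels (chromosome 15, 97806071 to 97806130) were 3.20, 3.18 and 3.65 in ciNPC, against -4.47 (not well above background) on NPC and 2.82 on MEF. All 3 ciNPC arrays lay above MEF. The difference from MEF was 0.52 (SE 0.22, limma adjusted p = 0.0944) and was not called, and the signal was at least 207-fold higher than in NPC (limma adjusted p = 7.09e-06). Of 7 chondrocyte markers, Matn1, Matn3, Hapln1 and Cnmd were not well above background on any array and Comp was so only on MEF. Acan was well above background on every array and was called in neither comparison. Its levels were -2.53, -1.62 and -2.64 in ciNPC, -3.35 on NPC and -1.24 on MEF. The summed signal of the 7 was 6.14 to 7.17 on the ciNPC arrays, 8.76 on NPC and 1.57 on MEF, and the transcription factor Sox9, which neural progenitors also express, was the one called higher in ciNPC than in MEF. Sox9 held 90.9% to 95.6% of the sum in ciNPC, 97.9% on NPC and 46.0% on MEF, and without it the sums were 0.273 to 0.650, 0.182 and 0.846.

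Of the type XI chains, which nucleate thin fibrils in cartilage and elsewhere, Col11a1 was called in both comparisons and Col11a2 in neither. Col11a1 had levels of -0.27, 0.09 and 0.10 in ciNPC, -1.99 on NPC and 2.31 on MEF, with differences of -2.34 (SE 0.23, limma adjusted p = 0.000351) from MEF and 1.96 (SE 0.23, limma adjusted p = 0.00329) from NPC. The call against NPC was lost without an intensity trend (adjusted p = 0.0529). Col11a2 had -1.42 and -1.95 on the p13 arrays, -4.04 on p5 and -4.41 on NPC, the last pair not well above background, and -2.73 on MEF. Its difference was 0.26 (SE 1.00) from MEF and 1.94 (SE 1.00) from NPC, and neither was called (limma adjusted p = 0.851 and 0.355). With p13 alone it was called against NPC, at 2.73 (limma adjusted p = 0.0114).

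The other fibrillar genes were Col24a1 and Col27a1. Col24a1 was well above background on MEF alone (-1.43), with -5.35, -3.75 and -5.02 in ciNPC and -6.44 on NPC. Because it passed the filter on dim genes through MEF alone, its being lower in ciNPC (at least 3.45-fold) followed from the filter and is a description. Its place among the 19 genes was lost when p5 or p13 replicate 1 was left out. Col27a1 was well above background on all 5 arrays, with -1.48, -2.70 and -2.09 in ciNPC, -1.95 on NPC and -1.34 on MEF, and the ciNPC arrays lay on both sides of NPC and all below MEF. Its differences of -0.76 (SE 0.51) from MEF and -0.14 (SE 0.51) from NPC were not called.

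The 6 basement membrane genes lie head to head in pairs, with a shared promoter region between the members of a pair. The Col4a1 and Col4a2 chains make up the network found in nearly every basement membrane, and both genes were lower in ciNPC than in MEF and higher than in NPC. Col4a1 (chromosome 8, 11199009 to 11199068) had levels of 2.43, 2.36 and 3.01 in ciNPC, -2.12 on NPC and 5.13 on MEF. It differed by -2.53 (SE 0.27, limma adjusted p = 0.000435) from MEF and 4.72 (SE 0.27, limma adjusted p = 9.19e-05) from NPC. Col4a2 (chromosome 8, 11448840 to 11448899) had 1.42, 1.37 and 1.79 in ciNPC, -2.44 on NPC and 4.93 on MEF, with differences of -3.41 (SE 0.21, limma adjusted p = 5.49e-05) and 3.96 (SE 0.21, limma adjusted p = 6.36e-05). The 3 ciNPC arrays of each gene lay between NPC and MEF with no overlap.

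The other basement membrane genes, whose chains are known from kidney, lung, eye and smooth muscle, were called in neither comparison. Col4a5 had levels of 0.64, 0.25 and 0.74 in ciNPC, 0.22 on NPC and 0.68 on MEF, so MEF lay within the ciNPC values and NPC just below them. Col4a6 had -0.85, -1.39 and -0.72 in ciNPC, -1.63 on NPC and -1.73 on MEF, a difference of 0.75 (SE 0.35, limma adjusted p = 0.125) from MEF. Col4a4 had -2.60, -2.45 and -2.96 in ciNPC, -3.48 on NPC and -2.83 on MEF. Col4a3 was not well above background on any array.

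Col4a1 and Col4a2 were called in both comparisons and Col4a5 and Col4a6 in neither, so the calls were alike within each pair. The sequences around their starts are shown, from 250 bases before to 50 bases after each start (RefSeq, GRCm38.p6). The windows are chr8:11312777-11313076 (minus strand) for Col4a1, chr8:11312555-11312854 (plus strand) for Col4a2, chrX:141475169-141475468 (plus strand) for Col4a5 and chrX:141474027-141474326 (minus strand) for Col4a6. Capitals mark CCAAT on either strand (CCAAT or ATTGG), the box bound by the factor NF-Y.
Col4a1: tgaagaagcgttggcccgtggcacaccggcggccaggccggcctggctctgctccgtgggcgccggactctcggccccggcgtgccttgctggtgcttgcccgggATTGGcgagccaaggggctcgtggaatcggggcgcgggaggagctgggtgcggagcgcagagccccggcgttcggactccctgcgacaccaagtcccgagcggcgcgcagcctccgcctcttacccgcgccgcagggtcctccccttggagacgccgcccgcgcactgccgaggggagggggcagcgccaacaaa
Col4a2: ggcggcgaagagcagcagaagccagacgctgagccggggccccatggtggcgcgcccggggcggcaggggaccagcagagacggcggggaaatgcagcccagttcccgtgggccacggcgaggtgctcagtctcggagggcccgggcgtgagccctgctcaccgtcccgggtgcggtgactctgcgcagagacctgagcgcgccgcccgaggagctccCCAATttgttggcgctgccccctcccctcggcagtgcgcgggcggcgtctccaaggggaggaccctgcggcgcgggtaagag
Col4a5: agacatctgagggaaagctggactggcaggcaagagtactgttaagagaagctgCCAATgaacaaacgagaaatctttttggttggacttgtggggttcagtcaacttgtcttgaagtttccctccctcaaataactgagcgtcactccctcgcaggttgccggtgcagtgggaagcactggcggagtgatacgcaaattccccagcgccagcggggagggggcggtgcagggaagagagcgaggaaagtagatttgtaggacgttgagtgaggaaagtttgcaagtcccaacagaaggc
Col4a6: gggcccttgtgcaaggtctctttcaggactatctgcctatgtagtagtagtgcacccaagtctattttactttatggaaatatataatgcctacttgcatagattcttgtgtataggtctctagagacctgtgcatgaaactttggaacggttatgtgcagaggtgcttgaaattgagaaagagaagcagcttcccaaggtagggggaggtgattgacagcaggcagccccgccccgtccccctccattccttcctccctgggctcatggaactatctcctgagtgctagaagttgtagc
The Col4a1 and Col4a2 starts lie 21 bases apart on opposite strands and their windows share 78 bases, whereas the Col4a5 and Col4a6 starts used lie 1343 bases apart. CCAAT was found in 36.1% of 36 windows of 33 collagen genes, beside 37.4% of all 32851 windows in the table. GGGCGG, the GC box, on either strand, was found in 61.1% of the collagen windows and 35.7% of all windows. These matches describe the letters in the windows, and any relation of the motifs or the spacing of starts to expression was not tested.

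Among FACIT collagens, type XII and type XIV, which bind the surface of type I fibrils, were lower in ciNPC than in MEF and higher than in NPC. Col12a1 had levels of 1.99, 2.08 and 2.56 in ciNPC, -0.42 on NPC and 5.00 on MEF, with differences of -2.79 (SE 0.24, limma adjusted p = 0.000185) from MEF and 2.63 (SE 0.24, limma adjusted p = 0.000865) from NPC. Col14a1 had -2.16, -2.39 and -1.56 in ciNPC, -6.55 (not well above background) on NPC and 1.61 on MEF. It differed by -3.65 (SE 0.45, limma adjusted p = 0.000864) from MEF and was at least 4.97-fold higher than in NPC (limma adjusted p = 0.00149). The call against NPC was lost under quantile normalization and with the deposited value table (adjusted p = 0.104 in each). For both genes every ciNPC array lay between the other cell types. A second Col14a1 probe was well above background on p13 replicate 2 (-1.52) and MEF (-1.24) alone, and its difference from MEF was smaller, -1.60.

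Col16a1, a fibril-associated chain of skin and other tissues, had levels of 3.61, 3.53 and 3.79 in ciNPC, 3.71 on NPC and 6.23 on MEF. The ciNPC arrays lay on both sides of NPC and all below MEF. The difference was -2.58 (SE 0.14, limma adjusted p = 4.16e-05) from MEF and -0.07 (SE 0.14, limma adjusted p = 0.814) from NPC. A second bright probe of the gene gave log2 differences of -2.02 and 0.02.

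Both collagen genes higher in ciNPC than in MEF were FACIT chains. Col9a3, one of 3 chains of the cartilage collagen IX, had levels of -2.82, -3.23 and -1.57 in ciNPC, -1.70 on NPC and -6.41 on MEF. The p13 replicate 2 and MEF values were not well above background. The measured Col9a3 difference from MEF was 3.87 (SE 0.75, limma adjusted p = 0.00574), and the bound was at least 3.37-fold higher in ciNPC. Col9a3 differed by -0.84 (SE 0.75, limma adjusted p = 0.572) from NPC. Col22a1, a chain of tissue junctions such as that between muscle and tendon, had -2.21, -3.17 and -3.05 in ciNPC, -2.57 on NPC and -5.24 on MEF, with p13 replicate 2 and MEF not well above background. Its measured difference from MEF was 2.43 (SE 0.63, limma adjusted p = 0.0187), and the bound was at least 2.79-fold higher in ciNPC. Both calls were lost under quantile normalization (adjusted p = 0.134 and 0.176), and that of Col22a1 also without p13 replicate 1 (0.116) and with normexp background (0.061). For both genes the ciNPC arrays lay on either side of NPC and all above MEF.

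The other FACIT genes were called in neither comparison. Col9a1 and Col9a2, the partners of Col9a3 in collagen IX, differed from MEF by 0.62 (SE 0.79) and 0.36 (SE 0.44). Among the ciNPC arrays, Col9a1 was well above background on p13 replicate 2 alone. Col20a1 differed by 0.12 (SE 0.62) from MEF and 0.05 (SE 0.62) from NPC. Col19a1 was well above background on NPC alone (-4.04).

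Type VI collagen forms beaded filaments around cells, and its measured genes showed some of the widest separations. Col6a1 (chromosome 10, 76171538 to 76171597) had levels of 2.92, 2.79 and 3.36 in ciNPC, -2.43 on NPC and 6.78 on MEF. It differed by -3.75 (SE 0.23, limma adjusted p = 5.54e-05) from MEF and 5.45 (SE 0.23, limma adjusted p = 2.7e-05) from NPC. Col6a2, its neighbour on chromosome 10 (76058931 to 76058990), had -0.70, -0.77 and -0.54 in ciNPC, -5.78 (not well above background) on NPC and 3.62 on MEF. Its ciNPC signal was 5.13% ± 0.419 of that in MEF (SD, n = 3), a difference of -4.29 (SE 0.25, limma adjusted p = 4.65e-05), and at least 12.8-fold above NPC (limma adjusted p = 4.53e-05). For both genes the 3 ciNPC arrays spread over less than 1 log2 unit and were separated from both other cell types. Col6a4 and Col6a6 were not tested.

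Type VII collagen forms the anchoring fibrils that tie epithelium to dermis. Col7a1 had levels of 1.54, 1.36 and 1.67 in ciNPC, -0.21 on NPC and 5.94 on MEF. The difference was -4.42 (SE 0.17, limma adjusted p = 1.01e-05) from MEF and 1.73 (SE 0.17, limma adjusted p = 0.00117) from NPC, so ciNPC lay nearer to NPC than to MEF.

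The short-chain collagens VIII and X form hexagonal networks, VIII in vessel walls and the cornea and X in the growth plate of cartilage. Col8a1 had levels of -0.34, -0.02 and 0.38 in ciNPC, -6.59 on NPC and 2.42 on MEF, and Col8a2 had -1.29, -0.97 and -0.82, -6.66 and 2.77. Both were not well above background on NPC and lay below MEF on every ciNPC array. They differed from MEF by -2.41 (SE 0.33, limma adjusted p = 0.00128) and -3.80 (SE 0.32, limma adjusted p = 0.000175), and exceeded NPC at least 20.5-fold (limma adjusted p = 5.26e-05) and at least 10.03-fold (limma adjusted p = 9.18e-05). A second Col8a2 probe was not well above background on any ciNPC array but was so on NPC, where the first probe was dim. Col10a1 had -1.18, -1.01 and -0.37 in ciNPC, -6.56 (not well above background) on NPC and -0.59 on MEF. The ciNPC arrays lay on both sides of MEF, with a difference of -0.26 (SE 0.43, limma adjusted p = 0.651), and were at least 11.3-fold above NPC (limma adjusted p = 0.000391). The second Col10a1 probe was dim on every array.

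Of the multiplexins, basement-membrane proteins whose C-terminal fragments include endostatin, Col18a1 had levels of 1.97, 1.52 and 1.37 in ciNPC, 1.16 on NPC and 3.40 on MEF. It differed by -1.78 (SE 0.24, limma adjusted p = 0.00129) from MEF and 0.46 (SE 0.24, limma adjusted p = 0.364) from NPC, and its second probe gave -2.04 and 0.59. Among transmembrane collagens, Col23a1 had -2.66, -2.33 and -3.13 in ciNPC, against -5.02 on NPC and -4.38 on MEF, both not well above background. It was at least 3.13-fold above NPC (limma adjusted p = 0.124) and at least 3.01-fold above MEF (limma adjusted p = 0.0734) and was not called. Because Col23a1 passed the filter on dim genes through ciNPC alone, these directions followed from the filter and are a description. Of its 2 other probes, 1 was dim on all ciNPC arrays and 1 was well above background on p13 replicate 2 alone. Col25a1, known from neurons, had -2.60, -1.28 and -3.76 in ciNPC, -2.10 on NPC and -3.40 on MEF, and the ciNPC arrays spanned both other values.

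In the 18 genes lower than in MEF and well above background on all 3 ciNPC arrays, the ciNPC signal had a median of 11.02% relative to MEF, from 3.99% for Col3a1 to 29.7% for Col18a1. By class the median was 12.6% over 7 fibrillar genes, 13.6% over 2 basement membrane genes, 14.7% over 3 FACIT genes and 7.39% over 6 other genes. Col5a2 was at 28.5%, Col1a1 at 22.0%, Col11a1 at 19.9% and Col8a1 at 19.2%. At the low end Col7a1 was at 4.69%, Col6a2 at 5.13% and Col5a1 at 6.42%.

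**Figure D3:**
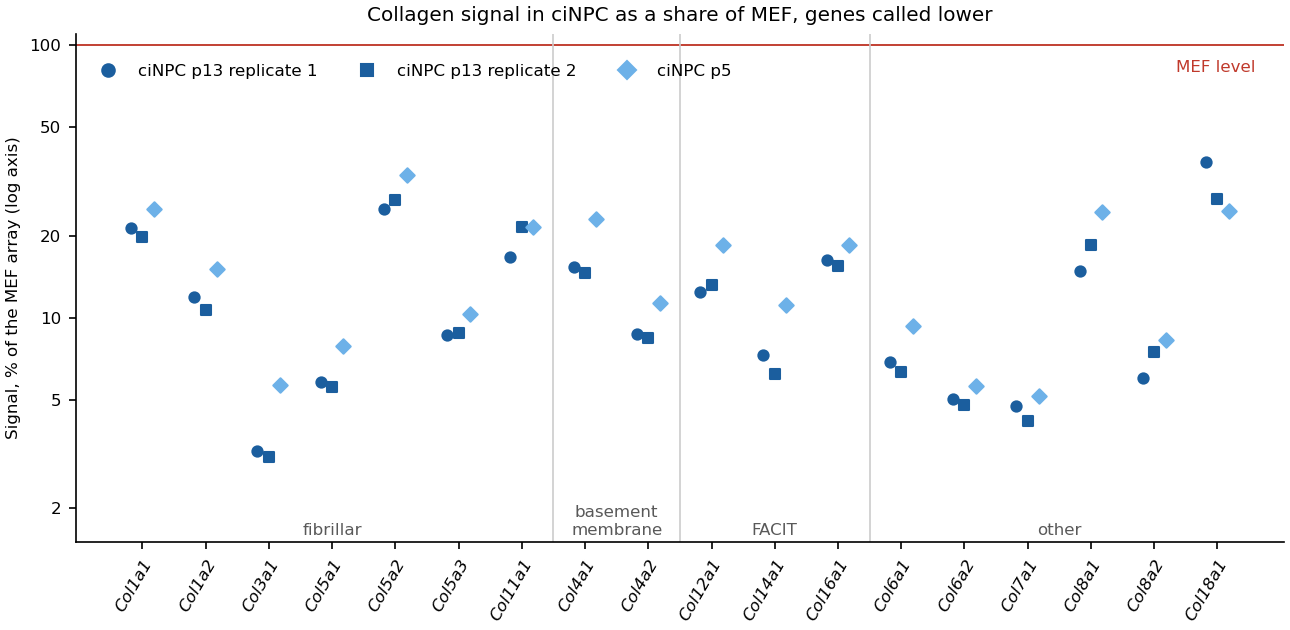
Signal of each ciNPC array as a percent of the MEF array (log axis) for the 18 collagen genes called lower than in MEF and well above background on all 3 ciNPC arrays, by class. The Col3a1 and Col7a1 symbols lie near 3% to 6%, and those of Col18a1 between 24% and 38%; in most genes the p5 diamond lies above both p13 symbols.

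Passage 13 against passage 5 asks whether collagen expression changed with culture. At 2-fold, 1 collagen gene, Col11a2, was called higher at p13 and 0 lower, beside 0.419% higher and 0.21% lower of all genes tested. At an unadjusted p under 0.05 in limma, 13 of the 35 were lower, beside 12.8% of all genes. Col11a2 was at least 3.75-fold higher (limma adjusted p = 0.0463 with 1 residual degree of freedom), but the call was lost without the intensity trend (adjusted p = 0.514), under quantile normalization (0.242) and without the filter on dim genes (0.0502). At an adjusted p under 0.05 with no fold limit, 7 of the 35 genes were lower at p13 and 1 was higher, beside 3.51% lower and 2.45% higher of all genes. The 7 were Col1a2 (-0.42), Col2a1 (-0.46), Col3a1 (-0.84), Col4a1 (-0.62), Col5a1 (-0.46), Col6a1 (-0.50) and Col12a1 (-0.53), in log2 units. Col3a1 had the smallest adjusted p among them, 0.00265 in limma, and Col2a1 the largest, 0.0402. Without the trend, 0 genes of the array passed in limma, and 1478 had an unadjusted p under 0.05.

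The p5 level lay above both p13 levels in 23 of the 35 genes tested and below both in 9, beside 39.5% above and 40.2% below over all genes. The median p13 minus p5 difference was -0.25 for collagen genes and 0.01 for all genes. Col1a1 (-0.29, SE 0.10, limma adjusted p = 0.105) and Col4a2 (-0.39, SE 0.12, limma adjusted p = 0.081) had the same sign without passing. Over the 27 collagen genes well above background on all ciNPC arrays, the p13 arrays differed from each other by a median of 0.15 log2 units. The p5 array is single, so its own spread was not measured. Summed fibroblast marker signal was 184 and 182 on the p13 arrays and 243 on p5, and the part of that difference in the collagen values was not tested.

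**Figure D4:**
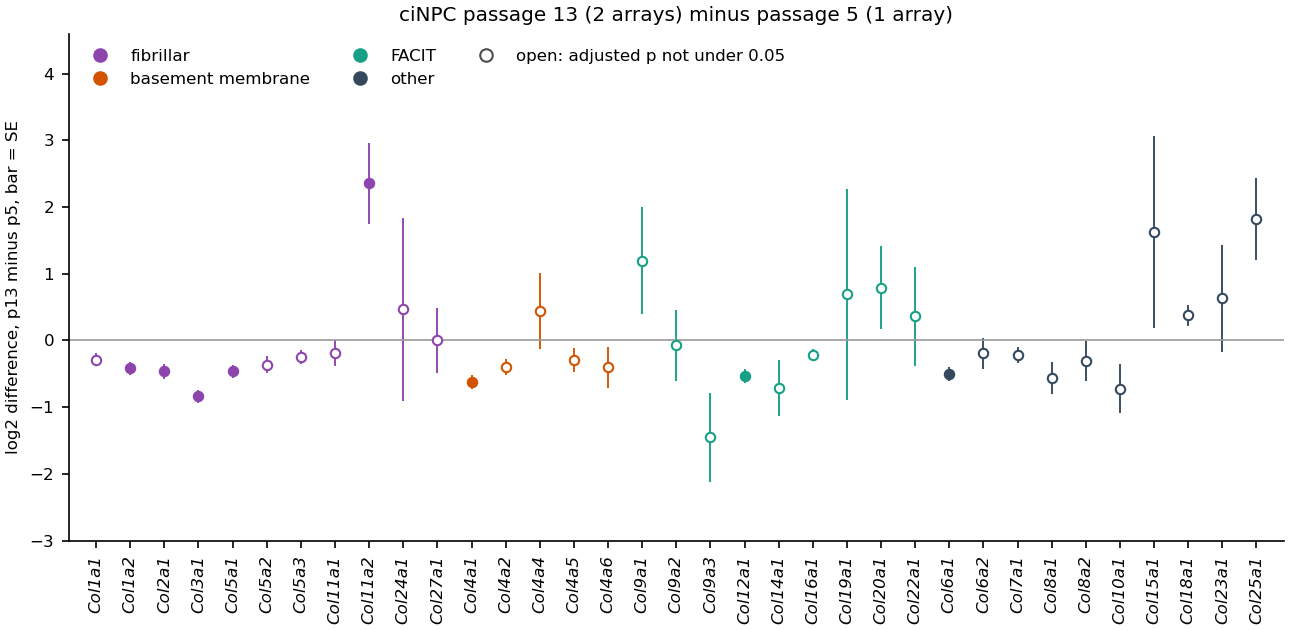
Log2 difference of the mean of the 2 p13 arrays from the p5 array for the 35 collagen genes tested, with standard errors from limma; filled points had an adjusted p under 0.05. The abundant fibrillar, type IV and type VI genes lie just below 0 with short bars, Col11a2 is the filled point above 0, and the dim genes have long bars.

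On dim genes p13 replicate 2 stood apart. Among the ciNPC arrays, Col15a1, Col13a1, Col6a6 and Col9a1 were well above background on p13 replicate 2 alone. Col15a1 had levels of -5.45, -2.63 and -5.67 on p13 replicate 1, p13 replicate 2 and p5, against -5.48 on NPC and -2.24 on MEF. The other Col15a1 probes were well above background on MEF alone. With all 3 ciNPC arrays Col15a1 was not called against MEF. Without p13 replicate 2 it was, but the ciNPC arrays left were not well above background (at least 2.26-fold lower), and the gene had passed the filter through MEF alone, so that direction followed from the filter. Over all probes dim on the other ciNPC arrays, p13 replicate 2 exceeded their mean by a median of 0.59 log2 units at a GC content under 40%, 1.35 at 40% to 50%, 2.02 at 50% to 60% and 2.27 above, whereas for probes above background there the medians ran from -0.07 to 0.35.

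The glycine repeat of the collagen helix can be read in some probes, and these are rich in GC. Of all 55681 probes, 29 held at least 5 glycine codons at every 9 bases, 3 of them collagen probes on mm9: chr4:47283786-47283845 for Col15a1, chr4:129756457-129756516 for Col16a1 and chr3:130270497-130270556 for Col25a1, all on the plus strand. Their sequences are shown with the glycine codons of the repeat in capitals.
Col15a1 probe: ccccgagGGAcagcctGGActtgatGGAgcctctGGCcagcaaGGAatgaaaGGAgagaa
Col16a1 probe: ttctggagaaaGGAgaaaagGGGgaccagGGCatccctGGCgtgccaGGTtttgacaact
Col25a1 probe: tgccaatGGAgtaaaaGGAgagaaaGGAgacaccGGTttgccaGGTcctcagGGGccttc
Their GC content was 58.3%, 55.0% and 55.0%, beside a median of 41.7% for the other 60 collagen probes. p13 replicate 2 exceeded the mean of the other ciNPC arrays by 2.93, 1.15 and 1.75 log2 units at these 3 probes. At the other 60, which include bright probes, the median was 0.29 and the largest value 3.34. Over all probes of 50% to 60% GC dim on the other ciNPC arrays, the median was 2.02, as given above. For those above background there it was 0.14. The Col16a1 probe shown was above background on p13 replicate 1 and the Col25a1 probe on p5, so only the Col15a1 probe was of the dim kind. The Col15a1 values above come from the first of the 3 probes shown, while the bright Col16a1 values come from another probe.

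NPC against MEF, with 1 array each on 1 slide, was described without a test. With dim values at the floor, 22 collagen genes were at least 4-fold lower in NPC and 1 was higher, beside 10.1% lower and 8.0% higher of all genes. The lower genes were 9 fibrillar, 2 basement membrane, 3 FACIT and 8 other genes. They include Col24a1 and Col15a1, which passed the filter through MEF alone, and without these the count was 20. Col1a1 was at least 5033-fold lower in NPC than in MEF, Col6a2 at least 250.4-fold and Col2a1 at least 144-fold. Col9a3 was at least 6.02-fold higher in NPC, and Col4a5 (-0.45) and Col4a6 (0.10) differed little in log2 units. The median over the tested members was -3.96, or -2.93 with dim values raised, beside -0.03 and -0.05 for all genes.

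Genes whose products make, assemble, bind and degrade collagen were examined beside the chains. Of 68 such genes 65 were tested, and 44 were lower and 4 higher in ciNPC than in MEF, while 21 were higher and 0 lower than in NPC (1 lower in limma at an unadjusted p under 0.05). Between p13 and p5, 0 were called in limma, with 27 lower and 4 higher at an unadjusted p under 0.05 (12.8% and 9.51% of all genes). Over all genes, as above, 15.3% were called each way against MEF, and 4.79% higher and 0.0863% lower against NPC. Of the fibroblast markers, 10 of 12 were lower than in MEF and 11 of 12 higher than in NPC. Of 8 pericyte and smooth muscle markers, 4 were lower than in MEF and 4 higher than in NPC, and Rgs5, Kcnj8 and Abcc9 were not well above background on any ciNPC array. Abcc9 was among the 4 lower but passed the filter through MEF alone, so its direction followed from the filter. The summed signal of the 8 markers was 158 to 199 in ciNPC, 8.85 on NPC and 866 on MEF, and Acta2 held 87.3% to 88.1% of it in ciNPC. The part of these markers in the collagen and pathway values was not tested.

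Inside the cell, the modifying enzymes were mostly lower than in MEF and mostly not called against NPC. Of 11 hydroxylase genes, 9 were lower than in MEF, among them the prolyl hydroxylase P4ha2 (-3.35 in log2 units), P3h3 (-2.36) and the lysyl hydroxylase Plod2 (-1.94), while P3h2 was higher (2.00). Only P4ha2 (2.20) and P3h4 (1.15) of the 11 were called higher than in NPC. Of the 2 collagen galactosyltransferases, Colgalt1 was lower than in MEF (-1.81) and Colgalt2 was higher, at least 38.1-fold over a MEF value not well above background, and neither was called against NPC (-0.28 and -0.34). Among 6 chaperones, 5 were lower than in MEF, led by the peptidyl-prolyl isomerase Fkbp10 (-2.77) and the collagen chaperone Serpinh1 (-1.87), and Fkbp10 (3.08) was the 1 called against NPC. In secretion, the transcription factor Creb3l1 differed by -3.84 from MEF and 1.26 from NPC, and the coat protein Sec24d by -1.24 and 1.49.

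Outside the cell, 6 of 6 crosslinking genes were lower than in MEF and 5 of 6 were higher than in NPC. The lysyl oxidase gene Lox had levels of 1.67, 1.79 and 1.95 in ciNPC, against -6.65 (not well above background) on NPC and 4.27 on MEF. Loxl1 differed by -3.26 from MEF and 5.62 from NPC, and Loxl2 by -2.82 and 3.06. Of 8 genes for propeptide cleavage, 3 were lower than in MEF, namely the N-propeptidase Adamts2 (-4.53), the C-propeptidase Bmp1 (-1.72) and the enhancer of C-propeptide cleavage Pcolce (-3.20), and 3 were higher than in NPC. These were Pcolce (3.81), Pcolce2 (1.15) and Adamts2, at least 33.8-fold over an NPC value not well above background.

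Some receptor and breakdown genes also stood between NPC and MEF. The collagen receptor Itga11 had levels of 1.95, 1.81 and 2.49 in ciNPC, -4.39 (not well above background) on NPC and 8.05 on MEF, and the collagen-binding kinase Ddr2 had 1.65, 1.59 and 2.28, -3.98 and 4.53. Both lay between the other cell types on every ciNPC array. In all, 5 of 10 receptor and uptake genes were lower than in MEF and 2 were higher than in NPC, with the uptake receptor Mrc2 at -4.35 against MEF. Of 7 breakdown genes, 4 were lower than in MEF and 3 higher than in NPC, among them the lysosomal protease Ctsk (-4.10 and 3.57) and the membrane metalloprotease Mmp14 (-3.17 and 2.75).

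The non-collagen partners of type IV collagen in basement membranes were 7 of 12 lower than in MEF and 3 of 12 higher than in NPC. The laminin chain gene Lama1 (-4.19) and the perlecan gene Hspg2 (-3.77) were lower than in MEF and not called against NPC (-0.19 and 0.51). The nidogen gene Nid1 had levels of 3.25, 3.17 and 3.75 in ciNPC, -1.67 on NPC and 5.14 on MEF, so it stood in the same order as Col4a1 and Col4a2. Nid2 (2.22) and the laminin gene Lama2 (3.52) were the others called higher than in NPC. Besides P3h2 and Colgalt2, the genes higher than in MEF were the integrin gene Itga10 (1.07) and the agrin gene Agrn (1.40), both named after their values were seen.

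**Figure D5:**
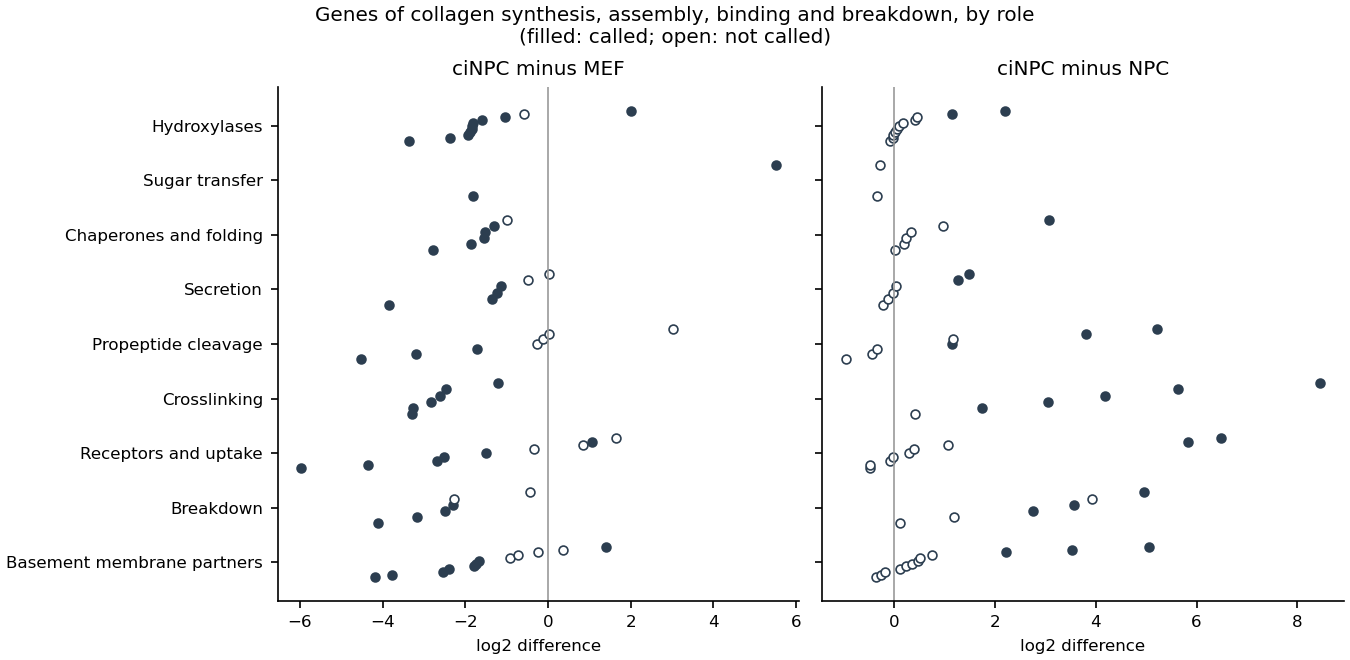
Log2 difference of ciNPC from MEF (left) and from NPC (right) for the 65 genes tested of collagen synthesis, assembly, binding and breakdown, in rows by role; filled points were called. The 6 crosslinking genes all lie left of 0 against MEF and right of 0 against NPC, while most hydroxylase and chaperone points sit near 0 against NPC.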

How the data were processed

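Total RNA was labelled with Cy3 and hybridised to 1 single-colour 60-mer array per sample. Spots were read by the authors in Agilent Feature Extraction 10.7.1.1, per the file headers. Processed signals in the deposited array files are intensity values, subtracted for background, with no scaling across arrays. Values on the log2 scale stand in the deposited table (median 5.65 in each column, r of 0.995 to 0.999 with log2 of the array's own signal), which served as an alternative. Its between-array scaling is not given in the sources used here. With it, 2422 genes were called higher and 2297 lower against MEF, beside 2427 and 2296 under quantile normalization. These alternatives gave nearly the same values and are not separate checks.

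Here the log2 intensity minus the array's 75th percentile was used, outlier spots left out. Of 55681 probes, 29676 were named through a reference table (GRCm38.p6, names only). The probe with the highest mean stood for a gene, and 16229 genes passed the filter on dim probes. limma 3.58.1 (R 4.3.3) with an intensity trend was fitted to 3 cell types (2 residual degrees of freedom) or 4 groups (1), with Benjamini-Hochberg adjustment over all genes. A gene was called at adjusted p under 0.05 and at least 2-fold. For MEF and NPC, with 1 array each, the spread of the ciNPC arrays was assumed. A fold against a dim group is a bound against the array's lowest well-above-background signal. The p beside such a fold tests the measured difference, with dim values not raised, and not the bound. Alternatives changed the scaling, background correction, probe rule, dim filter, trend and fold limit, or left out an array. The fit was also run on simulated data. These had the same spread in every cell type and no slide effect, so they cannot check the spread assumed for MEF and NPC or the effect of slide. The collagen genes, the pathway and marker lists and the tests were chosen with earlier results of these data known. All collagen genes could be named, and of other lists at most 4 called genes per role and comparison, by size of difference. The number of arrays limits the precision.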

Additional observations from a re-analysis of the deposited data

Results flagged for a closer look

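For Col11a2 the effect against MEF at p13 minus that at p5 was 2.36 in measured log2 units (limma adjusted p = 0.0463, which tests that difference). Its levels were -1.42 and -1.95 on the p13 arrays, against -4.04 on p5, which was not well above background, so the difference is a bound of at least 3.75-fold. The call was lost without the trend (adjusted p = 0.514), under quantile normalization (0.242), with the deposited table (0.237) and with no filter (0.0502). Collagen probes without a collagen gene symbol in the files were left out of the comparisons. In 2 of these 6 probes all 3 ciNPC arrays were well above background and more than 2-fold above NPC. A probe that the files describe as type VI alpha 3 (chromosome 1, 92663663 to 92663722, mm9) had levels of 1.63, 1.51 and 2.06 in ciNPC, -4.04 on NPC and 6.32 on MEF, so ciNPC lay 5.77 above NPC and its difference from MEF was -4.59. A probe described as type VI alpha 2 (chromosome 10, 76060580 to 76060639) had -3.15, -2.45 and -3.19 in ciNPC, -6.68 (not well above background) on NPC and 0.10 on MEF, with ciNPC a measured 3.75 above NPC, a bound of at least 2.67-fold. Neither difference was tested.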

How the results depend on the processing

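Of the 21 collagen genes called against MEF, 18 were called in each alternative that tested them, as were 14 of the 16 called against NPC, and no called gene changed sign. The counts were 19 to 23 against MEF, 15 to 17 against NPC and 20 to 26 for NPC against MEF, except when only genes above background on all 5 arrays were kept, which tests fewer genes and left 13, 9, and 13. Leaving out each ciNPC array in turn gave 19 to 22 against MEF and 17 against NPC. For p13 against p5 the count of 1 became 0 without the trend, under quantile normalization, with the deposited value table, with no filter on dim genes and with genes above background on all 5 arrays, and 8 with no fold limit; the cause was not tested. With either p13 array left out, 3 to 8 genes were at least 2-fold apart, without a test. Of calls not given above, Col9a3 and Col22a1 were also lost with the deposited table, and Col19a1 and Col23a1 were gained against MEF without the trend. For Col19a1, MEF and every ciNPC array were not well above background. Col23a1 had passed the filter through ciNPC alone, so its direction followed from the filter. Taking the percentile over detected probes gave a median over all genes of 0.06 in place of -0.09 against MEF, and -0.00 in place of -0.14 against NPC, and turned no called gene. Slide as a block was not run, since slide and cell type coincide. No paired analysis was possible because the groups share only replicate number 1. Dim collagen genes are limited by signal over background.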

Other observations

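The EMI domain gene Emid2, an older name of the type XXVI collagen gene outside the naming rule used here, had levels of -0.11, -0.25 and -0.74 in ciNPC, -0.23 on NPC and -2.45 on MEF. All 3 ciNPC arrays lay above MEF and on both sides of NPC. A probe described as type XXII alpha 1 had -0.75, -0.51 and -1.78 in ciNPC, -0.26 on NPC and -2.62 on MEF. MEF was lowest, as at the Col22a1 probe, but all 3 ciNPC arrays lay below NPC, whereas they lay on both sides of it at the Col22a1 probe. A probe described as type XII alpha 1 was well above background on MEF alone (-2.98). A probe described as a match to part of the bovine collagen alpha-1(I) chain (chromosome 4, 84320868 to 84320927, mm9) had 2.16, 2.32 and 1.66 in ciNPC, 2.40 on NPC and 3.93 on MEF. Its level on NPC was well above background and above all ciNPC arrays, unlike that of the Col1a1 probe on chromosome 11. These values were not tested.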
